A study of Mus musculus with 40 samples.

Results

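The 64 rows described here are the non-coding RNAs among 6831 abundant RefSeq transcripts measured in the cortex of mice after high-frequency head impact (HF-HI) or a sham procedure. Members were all rows with a RefSeq identifier of the non-coding kind (prefix NR_) whose gene symbol does not belong to a protein-coding gene by RefSeq, or by GENCODE where RefSeq gave no match. GENCODE calls 3 members coding that RefSeq calls long non-coding RNAs (Rnf227, Gm20716 and 1500011B03Rik), and they were kept. There were 97 rows with such an identifier, and 33 were left out because their symbol is that of a protein-coding gene. The 64 rows carried 56 symbols, and 1 row, NR_046233, had no symbol in the annotation used. Cortical RNA of male C57BL/6 mice aged 12 weeks was compared in 4 groups of 10 libraries. The saline sham group received saline and sham handling, the saline HF-HI group received saline and impacts, the memantine sham group received memantine and sham handling, and the memantine HF-HI group received memantine and impacts. Saline or memantine, an NMDA receptor antagonist, was injected into the abdomen 1 h before each daily procedure, and RNA was taken 24 h after injury. All animals were therefore injected and handled, and no untreated mice were included in these groups. The labels number the samples of each group without saying what the numbers stand for, so p-values measure the spread between these samples.

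Long non-coding RNAs are long transcripts that are processed much like messenger RNA but are not known to be translated. Some stay in the nucleus, where Malat1 collects in speckles and Neat1 builds paraspeckles, and some are made from only the maternal or only the paternal copy of an imprinted region. Small structured RNAs work inside ribonucleoprotein particles, where they cut transfer RNA precursors, guide the modification of ribosomal and spliceosomal RNA or take part in splicing. Pseudogene transcripts are copies of coding genes that share much of their sequence with the parent gene, so that a short read can fit both.

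The libraries held 13322404 to 17529644 reads in the table, and the lowest mean normalised read count of any row was 549.2. The table thus covers abundant RNAs only, and rarer non-coding RNAs were not analysed here. All 6 cortical excitatory neuron markers on a fixed list (7 rows) were present, which fits the labelled tissue. Markers of striatum were also present for 6 of 9 symbols (10 rows), and their summed normalised read count ran from 19683 to 33605 in the saline sham group and from 19174 to 29505 in the saline HF-HI group. In the memantine sham group that sum ran from 21411 to 32372, and in the memantine HF-HI group from 17553 to 30387. The only choroid plexus marker row ranged from 74 to 22031 over libraries, and no row of 5 blood markers was in the table. Pairwise correlations of deposited values across transcripts lay between 0.94 and 0.96, and no library stood apart by that measure. It depends largely on differences between transcripts, so a library that deviates in single rows need not show in it.

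Non-coding RNAs made up 0.937% of the rows and 5.97% of the normalised read counts. Malat1 alone held 3.09% of all counts and 51.7% of the counts of the members, and it was the most abundant row of the whole table. Its mean normalised read count was 475321 over the 40 libraries, at chr19:5795690-5802672 (GRCm38). There were 10 member rows with a mean count of at least 10000, which together held 90.2% of the members' counts. They were Malat1, NR_046233, Rpph1, Snhg14, 2 rows of Meg3, Norad, Rmrp, Kcnq1ot1 and Rian. The median member had a mean count of 1466, against 1233 for the median row of the table.

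Per length, the order was different and the small structured RNAs led. A transcript length from GENCODE was available for 54 members. Rpph1, the RNA part of RNase P, which trims transfer RNA precursors, had 142020 counts per kb (chr14:50807447-50807771). Rmrp, the RNA of the related RNase MRP, had 84317 counts per kb (chr4:43492785-43493059), and Malat1 was the third with 68068 counts per kb. Rnu12, the U12 spliceosomal RNA of minor introns, followed with 25148 counts per kb, and Snora74a, an H/ACA small nucleolar RNA, with 12168. The remaining places in the first 10 were taken by a row of Meg3 (NR_027651, 10242 counts per kb), Snord15b (8459), Norad (6825), Gm15772 (6659) and Snord17 (3818). The median over members with a length was 600.2 counts per kb, and the lowest was the long row of Neat1 with 68.4. The reads of such short RNAs depend on which fragment lengths a library keeps, and that dependence was not tested.

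Snord15b and Snord17 are box C/D small nucleolar RNAs, the class that guides 2′-O-methylation. Both lie inside a coding gene, Snord15b in Rps3 (chr7:99479563-99479707, minus strand) and Snord17 in Snx5 (chr2:144265979-144266216, minus strand). Their sequences (GENCODE transcripts, GRCm38) are shown because they are the members named as box C/D RNAs and carry both class boxes. Capitals mark the first match to the C box letters TGATGA and the last match to the D box letters CTGA, which begin at bases 7 and 137 in Snord15b and at bases 7 and 231 in Snord17.
Snord15b: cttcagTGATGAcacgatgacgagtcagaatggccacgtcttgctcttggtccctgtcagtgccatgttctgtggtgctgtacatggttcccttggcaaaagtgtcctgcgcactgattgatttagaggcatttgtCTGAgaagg
Snord17: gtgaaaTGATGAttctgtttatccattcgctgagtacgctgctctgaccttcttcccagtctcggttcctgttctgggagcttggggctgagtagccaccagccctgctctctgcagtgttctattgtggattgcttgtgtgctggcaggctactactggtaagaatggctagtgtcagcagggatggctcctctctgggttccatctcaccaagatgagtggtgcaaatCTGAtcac

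The spread between libraries of a group was of the same order in non-coding and other rows. The coefficient of variation of the normalised read count, pooled within groups, had a median of 7.51% over the 64 members and 7.92% over all 6831 rows. Counting error alone gives a median of 2.6% for the members. Norad, a cytoplasmic decoy for Pumilio proteins (chr2:156388063-156392979), had the lowest value of any member, 2.49%, with counts between 31735 and 35441 in all 40 libraries. Rian followed with 3.18% and Kcnq1ot1 with 4.29%. The 8 imprinted rows had a median of 6.22%, the 12 pseudogene rows 6.29%, the 35 other long non-coding rows 7.57% and the 8 small structured RNAs 13.24%. Of the 64 members, 9 rows exceeded 20%, as did 1366 of the 6831 rows of the whole table, which is a larger share.

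**Figure D1:**
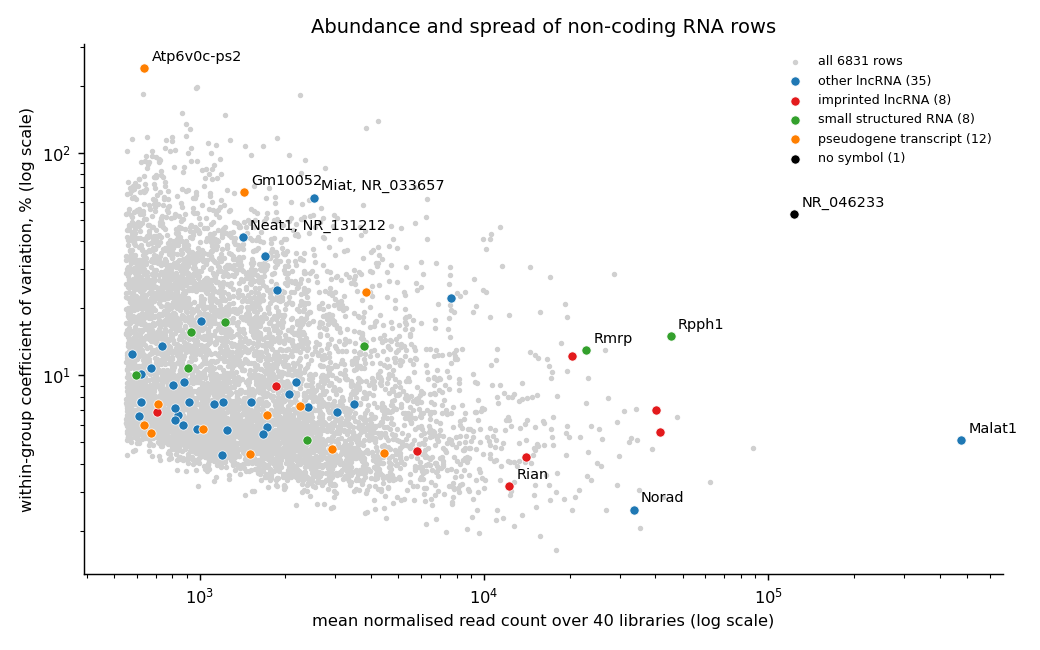
Mean normalised read count of each row over 40 libraries (x, log scale) against its coefficient of variation within groups (y, log scale), with all 6831 rows in grey and the 64 non-coding rows coloured by class. Malat1 lies farthest to the right at 475321, Norad is the member with the lowest spread (2.49%) and Atp6v0c-ps2 the one with the highest (240.61%).

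NR_046233 was the second most abundant member and the only abundant one with a wide spread. Its normalised read count had a lowest, median and highest value of 80501, 103646 and 274039 in the saline sham group, and of 67961, 104473 and 255358 in the saline HF-HI group. In the memantine sham group these were 74651, 89202 and 162606, and in the memantine HF-HI group 73012, 112174 and 383640. The groups overlapped almost entirely, and the highest library was 5.6 times the lowest. There were 4 libraries above double the median, which were saline sham replicates 6 and 9, saline HF-HI replicate 1 and memantine HF-HI replicate 6. No comparison gave an unadjusted p under 0.05 for this row (limma, lowest p = 0.262). The share of all counts taken by the 64 members was 6.06 ± 0.49% (SD, n = 10) in the saline sham group, 5.96 ± 0.49% in the saline HF-HI group, 5.79 ± 0.34% in the memantine sham group and 6.06 ± 0.65% in the memantine HF-HI group. Without NR_046233 the share was 5.20 ± 0.13%, 5.20 ± 0.19%, 5.10 ± 0.19% and 5.16 ± 0.14%, so the group means differed by less than the SD of the groups either way.

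Several rows with a wide spread ran opposite to a second row. Miat, a nuclear long non-coding RNA of neurons (chr5:112213228-112228948), was counted in 2 rows, NR_003718 and NR_033657. The first row held between 6.4% and 99.8% of the Miat counts of a library, with a median of 75.7%. The coefficients of variation were 22.23% and 63.01% for the rows but 7.03% for their sum. Within groups the deposited values of both rows ran in opposite directions (Pearson r = -0.70, permutation p = 1e-05, Spearman rho = -0.83, permutation p = 1e-05, n = 40 libraries, adjusted p = 3e-05 for both over 10 such relations). These p-values are the smallest that 100000 permutations can give. Without the 2 libraries farthest from the median of NR_003718, r was -0.69, and within the 4 groups it ran from -0.87 to -0.73. Both rows were matched to 1 GENCODE transcript, so their counts per length cannot be told apart.

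The 2 rows of Tug1, a long non-coding RNA with roles in nucleus and cytoplasm (chr11:3639785-3648814), were opposed in the same way (r = -0.62, permutation p = 2e-05, adjusted p = 4e-05, rho = -0.57, permutation p = 0.0002, adjusted p = 0.0004), with r = -0.54 when the 2 farthest libraries were left out. For Neat1 (chr19:5824708-5845480) r was -0.81 (permutation p = 0.0003, adjusted p = 0.0004), but rho was -0.26 (permutation p = 0.103, adjusted p = 0.106). The relation rested on 2 libraries, saline sham replicate 3 and memantine HF-HI replicate 5, and r was -0.12 without them. In these libraries the short row, NR_003513, had 29 and 48 counts against group medians of 1842 and 1914, and the long row, NR_131212, had 3938 and 3430. For the rows of Oip5os1, r was -0.38 (permutation p = 0.0146, adjusted p = 0.0182) and rho -0.42 (permutation p = 0.00737, adjusted p = 0.0105), with r = -0.29 without the 2 farthest libraries. Within single groups r was between -0.77 (saline HF-HI) and 0.06 (the memantine group with impacts).

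Among pseudogenes, Atp6v0c-ps2 (chr6:37805975-37807107) was high only in libraries where the row of its parent gene was low, which is Atp6v0c, a proton-pump subunit. In 34 libraries the pseudogene row held 3 to 13 counts and the parent row 3717 to 4730. In the other 6 libraries the pseudogene row held 3883 to 4422 counts and the parent row only 27 to 52. The sum ran from 3723 to 4735 in all 40 libraries, with a coefficient of variation of 5.83%. Of these 6 libraries, 3 were in the saline HF-HI group and 1 in each other group. Since the libraries fell into separate clusters, no correlation is given. Other pseudogene rows moved with their parents instead. Pisd-ps1 and Pisd, which makes phosphatidylethanolamine in mitochondria, had r = 0.82 (permutation p = 1e-05, adjusted p = 3e-05) and rho = 0.74 (permutation p = 1e-05, adjusted p = 3e-05), with r = 0.75 without the 2 farthest libraries. Tmem181b-ps and Tmem181a had r = 0.63 (permutation p = 2e-05, adjusted p = 4e-05) and rho = 0.60 (permutation p = 5e-05, adjusted p = 0.0001), with r = 0.52 without the 2 farthest libraries. Gm10052 (chr9:123688848-123690275) was also split, with 14 libraries at 370 counts or fewer and 26 libraries at 1766 or more. The libraries in the low set numbered 4, 3, 4 and 3 in the saline groups (sham, then impact) and the memantine groups (sham, then impact). Reads can be shared between a pseudogene and its parent or between transcripts of 1 gene. Whether that sharing gave these splits was not tested, and these rows are uncertain as levels of 1 transcript.

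**Figure D2:**
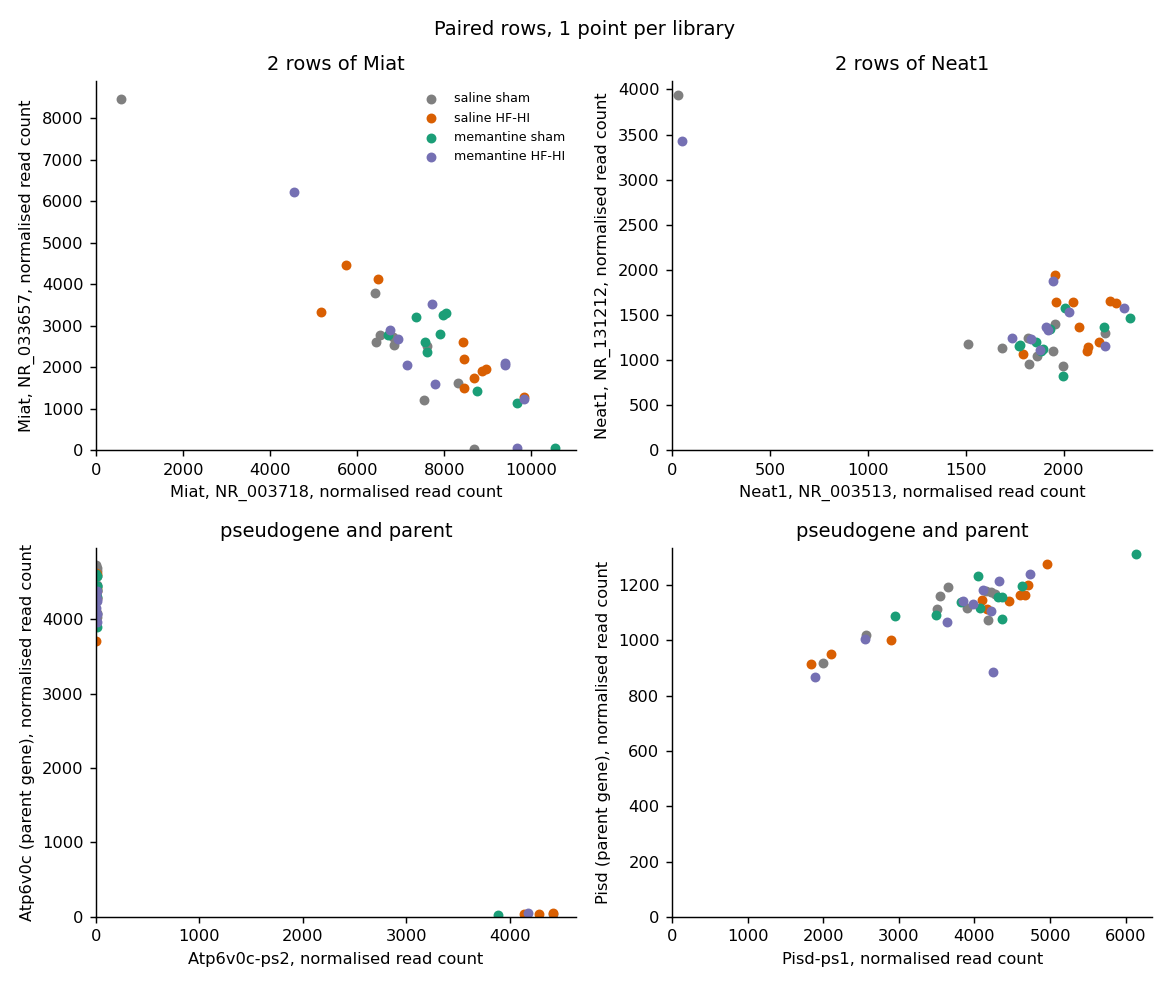
Normalised read counts of paired rows in each of 40 libraries, coloured by group. The rows of Miat lie along a falling line, Neat1 has 2 libraries apart from the rest, Atp6v0c-ps2 and its parent occupy opposite corners with 6 and 34 libraries, and Pisd-ps1 rises with Pisd.

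The question of the design was whether impact changes transcript levels and whether memantine alters that change. None of the 64 members passed a Benjamini-Hochberg adjusted p under 0.1 in any of the 5 comparisons (limma on the deposited log2 values over all 6831 rows). With the sample number as a replicate block, the smallest adjusted p of a member was 0.0918, for 5031426D15Rik in saline HF-HI versus saline sham, so this call changed with the block. In saline HF-HI versus saline sham the smallest adjusted p of a member was 0.249, and 14 rows of the table (0.205%) passed that threshold. In the other comparisons 1 row (0.0146%) passed for memantine HF-HI versus memantine sham, 2 rows (0.0293%) for memantine sham versus saline sham and 0 rows for the rest. At an unadjusted p under 0.05, 5 of 64 members differed in this comparison, which is 7.81% against 9.53% of all rows. There were 3 higher members, against 4.58% of all rows, and 2 lower, against 4.95%. In memantine HF-HI versus memantine sham 2 members differed, which is 3.12% against 4.61% of all rows, with 1 higher (2.39% of all rows) and 1 lower (2.23%). In memantine HF-HI versus saline HF-HI 4 members differed, which is 6.25% against 3.91%, with 1 higher with the drug (1.52% of all rows) and 3 lower (2.39%). In memantine sham versus saline sham 5 members differed, which is 7.81% against 7.51%, with 2 higher (3.67% of all rows) and 3 lower (3.84%). The interaction of impact and drug passed in 1 member, which is 1.56% against 3.73%, with a positive sign (1.92% of all rows) and none negative (1.82%). The median log2 difference of the members lay between -0.0036 and 0.0068 over the 5 comparisons, and that of all rows between -0.0008 and 0.0001.

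**Figure D3:**
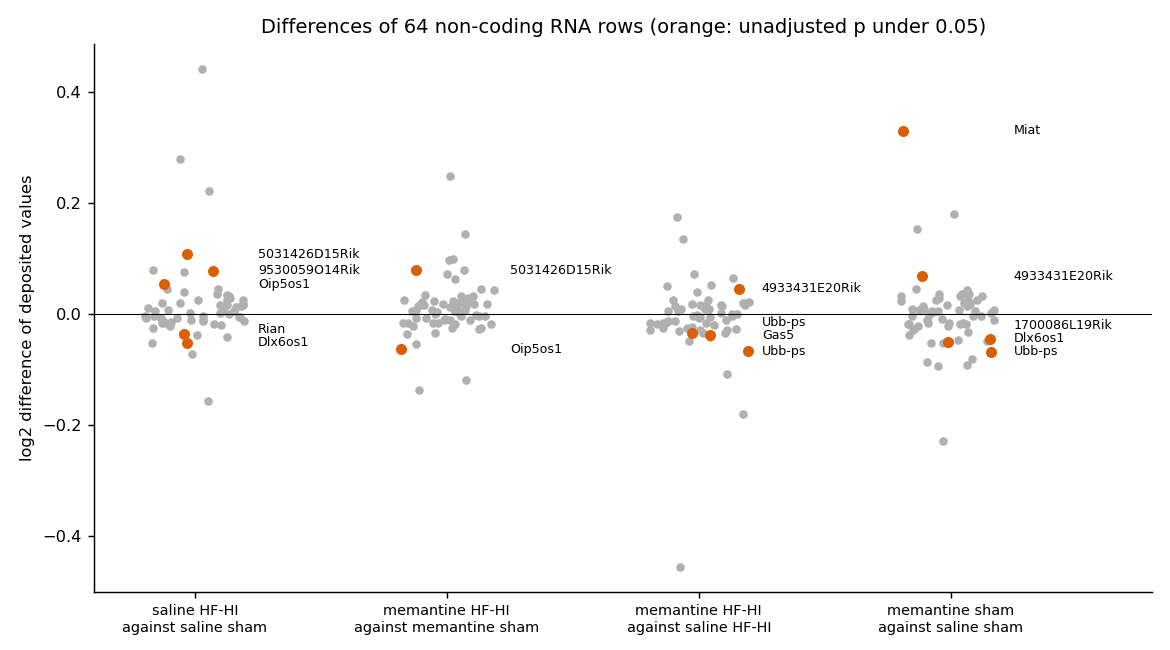
Log2 difference of the deposited values (y) for each of the 64 members in the 4 pairwise comparisons (x), with members at an unadjusted p under 0.05 in orange and named. Most differences lie close to 0, and 5, 2, 4 and 5 members are named from left to right.

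Among the members that differed after impact, 5031426D15Rik was higher under both saline and memantine. This long non-coding RNA of unknown role lies at chr2:6922702-6928722 within Celf2, a splicing regulator gene. Its normalised read count had a lowest, median and highest value of 1773, 2097 and 2366 in the saline sham group and 2143, 2433 and 2588 in the saline HF-HI group. In the memantine sham group these were 1593, 2041 and 2348, and in the memantine HF-HI group 1820, 2286 and 2440. All 10 saline HF-HI libraries lay above the mean of the saline sham group, although the groups overlapped. The log2 difference of the deposited values was 0.11 ± 0.033 (SE) under saline (p = 0.00237, adjusted p = 0.25, permutation p = 0.00208), which is 0.20 as log2 counts. Under memantine it was 0.079 ± 0.033 (p = 0.0231, adjusted p = 0.967, permutation p = 0.0519), with 9 of 10 impact libraries above the sham mean. The comparisons share no libraries. None of the 6 rows of Celf2 in the table had an unadjusted p under 0.05 in either comparison.

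9530059O14Rik, another long non-coding RNA of unknown role (chr9:122572501-122580647), was higher in saline HF-HI versus saline sham. Its counts had a lowest, median and highest value of 497, 618 and 826 in the saline sham group and 636, 712 and 824 in the saline HF-HI group. In the memantine sham group these were 598, 654 and 786, and in the memantine HF-HI group 592, 705 and 810. The saline impact libraries were all above the saline sham mean of 614, but the highest library of both groups was a sham library. The log2 difference was 0.078 ± 0.023 (SE, p = 0.00194, adjusted p = 0.249, permutation p = 0.00792), or 0.23 as log2 counts. Under memantine the permutation p was 0.274, and the interaction had p = 0.112. The nearest coding gene, Topaz1, lay 166.6 kb away in the RefSeq annotation.

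Oip5os1, also called Cyrano, a conserved long non-coding RNA that drives the decay of a microRNA (chr2:119594296-119600746), gave opposite differences in its rows. NR_015473 was higher in saline HF-HI versus saline sham by 0.054 ± 0.0265 (p = 0.0481, adjusted p = 0.519, permutation p = 0.0686). NR_027832 was lower in memantine HF-HI versus memantine sham by -0.063 ± 0.0305 (p = 0.0473, adjusted p = 0.967, permutation p = 0.0566). Sums were tested as log2 counts with 1 added, a scale on which NR_015473 differed by 0.09 and NR_027832 by -0.175. Summed over its rows, Oip5os1 had differences on that scale of 0.058 ± 0.033 (p = 0.0833) and 0.024 ± 0.033 (p = 0.462). Neither comparison passed, and in the second the sum and NR_027832 had opposite signs.

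Dlx6os1, also known as Evf2, is transcribed beside the Dlx5 and Dlx6 genes of the interneuron lineage (chr6:6820543-6871627). It was highest in the saline sham group, with lowest, median and highest counts of 722, 856 and 971. The saline HF-HI group gave 664, 777 and 991, the memantine sham group 684, 795 and 851, and the memantine HF-HI group 712, 806 and 893. Only 1 of 10 saline HF-HI libraries and none of 10 memantine sham libraries lay above the saline sham mean. The log2 difference was -0.051 ± 0.021 (SE) in saline HF-HI versus saline sham (p = 0.0221, adjusted p = 0.445, permutation p = 0.0552). In memantine sham versus saline sham it was -0.050 ± 0.021 (p = 0.0241, adjusted p = 0.634, permutation p = 0.0154). As log2 counts with 1 added these are -0.14 and -0.135. These comparisons share the saline sham libraries. In memantine HF-HI versus memantine sham the difference was 0.020 ± 0.021 (p = 0.345), and the interaction was 0.071 ± 0.030 (p = 0.0234, adjusted p = 0.999).

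Markers of other cells moved in the same comparison as Dlx6os1. In saline HF-HI versus saline sham, 3 of 5 interneuron marker rows and 5 of 10 striatal marker rows were lower at an unadjusted p under 0.05, and 1 interneuron row was higher. Of all rows, 4.95% were lower and 4.58% higher there. The summed interneuron markers ranged from 13338 to 16824 in the saline sham group and from 12544 to 15746 in the saline HF-HI group. With the striatal markers as a covariate, the difference of Dlx6os1 was -0.029 (p = 0.175) and its interaction 0.055 (p = 0.0575). In memantine sham versus saline sham, 1 of 5 interneuron rows and 0 of 10 striatal rows were lower, against 3.84% of all rows. The difference of Dlx6os1 with the covariate in that comparison was -0.048 (p = 0.0177). In bulk tissue, fewer cells of a type and less RNA per cell cannot be told apart. With this covariate 2 members, 5031426D15Rik (0.10, p = 0.00675) and 9530059O14Rik (0.099, p = 0.000172), kept an unadjusted p under 0.05 in saline HF-HI versus saline sham.

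The memantine comparisons were led by 4933431E20Rik, which was higher with the drug in both sham and impact mice. It is a long non-coding RNA of unknown role at chr3:107888850-107896213 that overlaps Gstm5 and Eps8l3 on the opposite strand. Its counts had a lowest, median and highest value of 1402, 1608 and 1759 in the saline sham group and 1591, 1745 and 1986 in the memantine sham group. In the saline HF-HI group these were 1481, 1638 and 1736, and in the memantine HF-HI group 1636, 1732 and 1783. All 10 memantine HF-HI libraries were above the saline HF-HI mean, and 9 of 10 memantine sham libraries were above the saline sham mean. The log2 difference was 0.068 ± 0.017 (SE) in sham mice (p = 0.000416, adjusted p = 0.281, permutation p = 0.00346) and 0.046 ± 0.017 in impact mice (p = 0.0127, adjusted p = 1, permutation p = 0.00172). As log2 counts these are 0.14 and 0.092. The comparisons share no libraries. Gstm5, a glutathione transferase gene, had differences of -0.002 (p = 0.912) and -0.026 (p = 0.157) in these comparisons. The library kit keeps strand, but whether the counting used it was not stated, and without it the reads of overlapping genes cannot be told apart.

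The promoters of 4933431E20Rik and 9530059O14Rik, the members with the smallest p for the drug and for impact, are shown to compare their composition (RefSeq, GRCm38.p6, 250 bases before to 50 bases after the start). That of 4933431E20Rik is at chr3:107896164-107896463 on the minus strand, with 55.7% G and C. That of 9530059O14Rik is at chr9:122572251-122572550 on the plus strand, with 75.7% G and C. Both strands were searched for the E-box CACGTG (in 7.15% of 32851 promoters), the cAMP response element TGACGTCA (1.79%), the AP-1 letters TGANTCA (7.81%), the GC box GGGCGG (35.7%) and the TATA box TATAAA (13.6%). Capitals mark the matches, and GC boxes that overlap run together. The promoter of 9530059O14Rik held 1 E-box and 7 GC boxes, and that of 4933431E20Rik held none of these letters. RefSeq gave no promoter for 5031426D15Rik in the table used.
4933431E20Rik: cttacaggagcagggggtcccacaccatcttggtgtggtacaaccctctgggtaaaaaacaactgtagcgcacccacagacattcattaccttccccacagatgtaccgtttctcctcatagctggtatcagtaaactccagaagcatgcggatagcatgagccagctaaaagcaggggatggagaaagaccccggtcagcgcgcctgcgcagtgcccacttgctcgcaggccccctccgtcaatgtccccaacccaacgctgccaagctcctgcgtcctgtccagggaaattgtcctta
9530059O14Rik: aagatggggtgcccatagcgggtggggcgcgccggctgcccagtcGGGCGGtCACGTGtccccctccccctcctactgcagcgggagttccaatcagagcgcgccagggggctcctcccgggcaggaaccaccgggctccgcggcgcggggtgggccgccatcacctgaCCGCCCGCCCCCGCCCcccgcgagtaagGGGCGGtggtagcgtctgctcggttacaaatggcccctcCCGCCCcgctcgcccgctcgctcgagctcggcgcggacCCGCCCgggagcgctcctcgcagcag

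Of the rows of Ubb-ps, a pseudogene of the ubiquitin gene Ubb, the chromosome 11 row was lower with memantine in sham and impact mice. The other row of Ubb-ps is for chromosome 14, where it is annotated (chr14:46084027-46084957). Chromosome 11 is the chromosome of the parent gene Ubb. Whether the chromosome 11 row is a level of the pseudogene was not tested. The chromosome 11 row had a lowest, median and highest count of 2155, 2378 and 2610 in the saline sham group and 1973, 2145 and 2342 in the memantine sham group. In the saline HF-HI group these were 1993, 2387 and 2570, and in the memantine HF-HI group 1914, 2111 and 2583. In each memantine group only 1 of 10 libraries lay above the mean of the matching saline group. The log2 difference was -0.068 ± 0.026 (SE) in sham mice (p = 0.0119, adjusted p = 0.59, permutation p = 0.00782) and -0.067 ± 0.026 in impact mice (p = 0.0127, adjusted p = 1, permutation p = 0.034). As log2 counts with 1 added these are -0.124 and -0.123. The chromosome 14 row was lower in impact mice by -0.034 ± 0.014 (p = 0.0187, adjusted p = 1, permutation p = 0.0356), and in sham mice its permutation p was 0.0889. Within groups the rows moved together (r = 0.56, permutation p = 0.0001, adjusted p = 0.0002, rho = 0.46, permutation p = 0.00315, adjusted p = 0.00525), with r = 0.41 without the 2 farthest libraries. Ubb itself had differences of -0.045 (p = 0.253) in sham mice and -0.038 (p = 0.33) in impact mice, with a mean count of 1740. The relation of the pseudogene rows to Ubb was r = 0.29 (permutation p = 0.0688, adjusted p = 0.0688) for chromosome 11 and r = 0.30 (permutation p = 0.0589, adjusted p = 0.0654) for chromosome 14, with rho of 0.33 (permutation p = 0.0362, adjusted p = 0.0453) and 0.26 (permutation p = 0.106, adjusted p = 0.106). Without the 2 farthest libraries, r was 0.27 and 0.21.

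Gas5, the host of several box C/D small nucleolar RNAs and a transcript tied to growth arrest (chr1:161034422-161038539), was lower in memantine HF-HI versus saline HF-HI. Its counts had a lowest, median and highest value of 822, 910 and 1092 in the saline HF-HI group and 780, 856 and 957 in the memantine HF-HI group. The log2 difference was -0.038 ± 0.019 (SE, p = 0.0478, adjusted p = 1, permutation p = 0.0806), or -0.098 as log2 counts with 1 added. The permutation test did not pass. In sham mice the difference of the deposited values was -0.032 ± 0.019 (p = 0.0987). 1700086L19Rik, of unknown role (chr12:74284276-74295950), was lower in memantine sham versus saline sham, with medians of 589 and 652 (-0.045 ± 0.021, p = 0.0392, adjusted p = 0.64, permutation p = 0.0298). Its difference was -0.14 as log2 counts with 1 added.

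**Figure D4:**
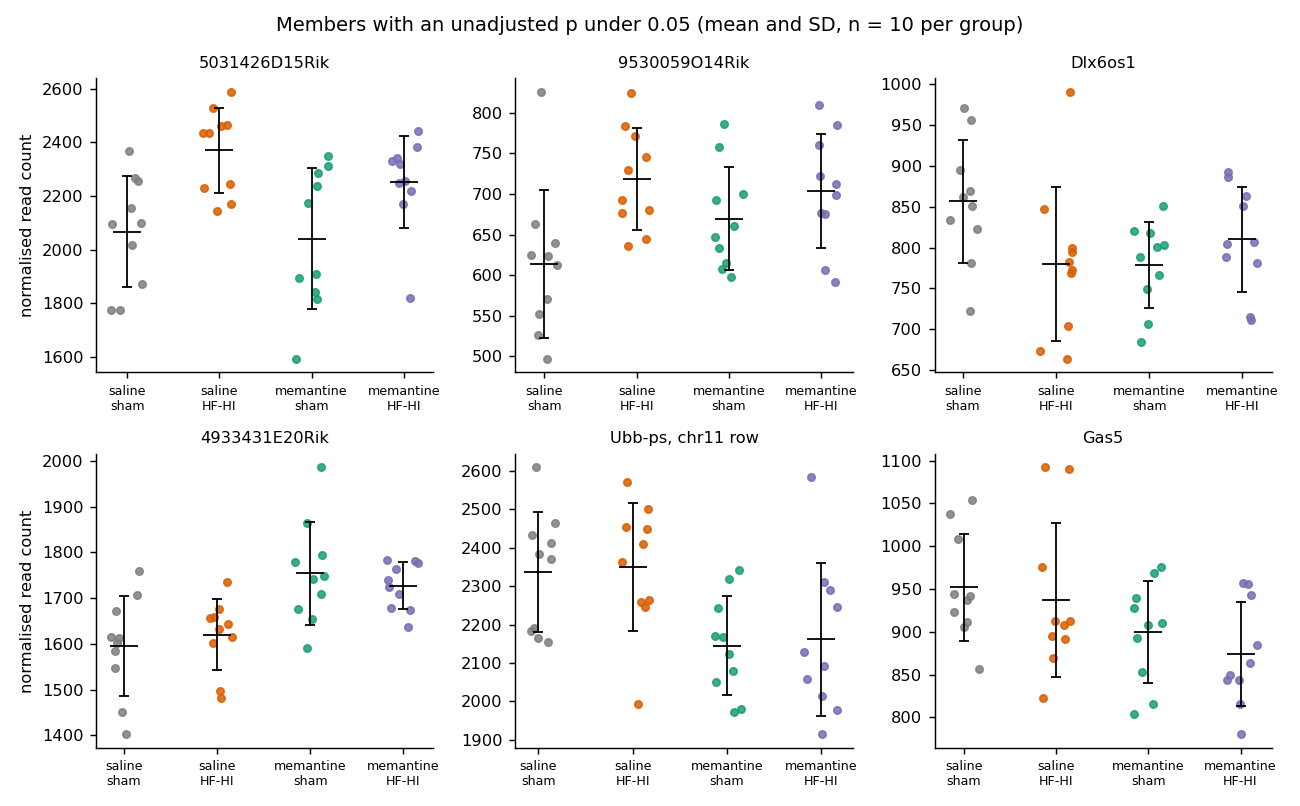
Normalised read count (y) of 6 members in each library of the 4 groups (x, n = 10 each), with bars for the mean and SD. 5031426D15Rik is higher in both HF-HI groups than in the matching sham group, and 4933431E20Rik is higher and the chromosome 11 row of Ubb-ps lower in both memantine groups.

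Miat and Neat1 were also compared as sums of their rows, since the split between rows differed so widely. Differences of these sums are of log2 counts with 1 added and not of deposited values. The Miat sum had a lowest, median and highest count of 8708, 9341 and 10184 in the saline sham group and 8493, 10639 and 11096 in the saline HF-HI group. The memantine sham group gave 9483, 10571 and 11340, and the memantine HF-HI group 9186, 10239 and 11488. The saline sham group was the low one, with 9 of 10 saline HF-HI libraries and 10 of 10 memantine sham libraries above its mean. Marker rows were compared on the deposited scale, which is not the scale of the sums. Of the 7 cortical excitatory neuron marker rows, 2 were higher and 0 lower in saline HF-HI versus saline sham (median log2 difference 0.059). The same counts held in memantine sham versus saline sham (0.079). Of all rows, 4.58% and 3.67% were higher in these comparisons. In memantine HF-HI versus memantine sham 0 of 7 rows passed (-0.024), against 4.61% of all rows. Their summed count ran from 35493 to 48869 in the saline sham group, 36369 to 49933 in the saline HF-HI group, 37110 to 52108 in the memantine sham group and 32603 to 48958 in the memantine HF-HI group, and their part in the Miat difference was not tested. The log2 difference of the sum was 0.15 ± 0.045 (SE) in saline HF-HI versus saline sham (p = 0.00248, adjusted p = 0.2, permutation p = 0.00466). In memantine sham versus saline sham it was 0.16 ± 0.045 (p = 0.00106, adjusted p = 0.312, permutation p = 0.00066), and these comparisons share the saline sham libraries. In memantine HF-HI versus memantine sham it was -0.023 ± 0.045 (p = 0.611), and the interaction was -0.17 ± 0.064 (p = 0.0115, adjusted p = 0.999). On the deposited scale the row NR_003718 alone passed in memantine sham versus saline sham (0.33 ± 0.16, p = 0.0456, adjusted p = 0.653, permutation p = 0.023). As log2 counts with 1 added, that row differed by 0.54 (limma p = 0.0583). Saline sham replicate 9 held only 576 counts in that row, and its part in this difference was not tested. In saline HF-HI versus saline sham that row did not pass (permutation p = 0.17).

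The Neat1 sum had a lowest, median and highest count of 2686, 2991 and 3967 in the saline sham group and 2857, 3524 and 3898 in the saline HF-HI group. The memantine sham group gave 2826, 3041 and 3798, and the memantine HF-HI group 2982, 3320 and 3888. In the saline comparison 9 of 10 impact libraries were above the sham mean, and the highest library of all was a sham library. The log2 difference of the sum was 0.18 ± 0.066 (SE, p = 0.00966, adjusted p = 0.307, permutation p = 0.0274) under saline and 0.075 ± 0.066 (p = 0.265, permutation p = 0.262) under memantine. The interaction was -0.11 ± 0.094 (p = 0.267). The sums of Meg3 and Tug1 had no unadjusted p under 0.05 in any comparison.

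**Figure D5:**
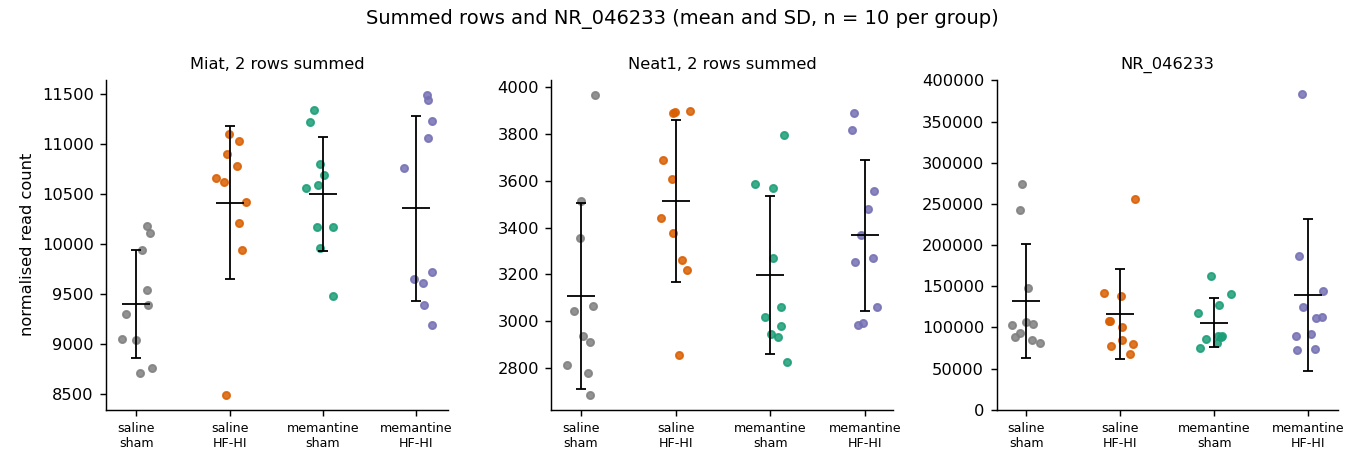
Normalised read counts (y) of the Miat rows summed, the Neat1 rows summed and NR_046233 in the 4 groups (x, n = 10 libraries each), with bars for the mean and SD. The Miat sum is lowest in the saline sham group, the Neat1 sum is highest in the saline HF-HI group by its median of 3524, and NR_046233 has single libraries up to 383640 in overlapping groups.

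The imprinted long non-coding RNAs had mean counts from 705.8 for A330076H08Rik to 41383 for Snhg14, and their summed share differed little between groups. Of 16 listed, 6 were present in 8 rows, and they held 0.887% of all counts. They come from 4 regions, the Dlk1-Dio3 region on chromosome 12 (Meg3 and Rian), the Prader-Willi and Angelman region on chromosome 7 (Snhg14 and A330076H08Rik), the Kcnq1 region on chromosome 7 (Kcnq1ot1) and the Peg13 region on chromosome 15. Their summed share was 0.880 ± 0.044% (SD, n = 10) in the saline sham group, 0.896 ± 0.032% in the saline HF-HI group, 0.885 ± 0.024% in the memantine sham group and 0.887 ± 0.027% in the memantine HF-HI group. Snhg14, a paternal transcript that hosts small nucleolar RNAs and runs over Ube3a on the opposite strand (chr7:59272737-60450177), had group medians between 41543 and 42580. Meg3, a maternal transcript (chr12:109540996-109571729), had group medians between 61048 and 63119 as the sum of 3 rows. Kcnq1ot1, which silences its neighbours in cis (chr7:143213111-143296547), had group medians between 14082 and 14359, and Peg13, which lies within Trappc9 (chr15:72805602-72810324), between 5720 and 5903.

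Rian, a maternal host of small RNAs downstream of Meg3 (chr12:109603945-109661716), was the only one of the 8 imprinted rows with an unadjusted p under 0.05. It passed in saline HF-HI versus saline sham, where 9.53% of all rows passed. Its counts had a lowest, median and highest value of 11817, 12313 and 13504 in the saline sham group and 11780, 12023 and 12655 in the saline HF-HI group. Only 2 of 10 impact libraries lay above the sham mean. The log2 difference was -0.035 ± 0.017 (SE, p = 0.0496, adjusted p = 0.523), and the permutation test did not pass (p = 0.094). With the striatal covariate p was 0.139. Of the 28 rows of imprinted coding genes (23 of 46 symbols), 2 were higher and 3 lower at an unadjusted p under 0.05 in saline HF-HI versus saline sham, where 4.58% of all rows were higher and 4.95% lower. Herc3 was higher by 0.085 (p = 0.000706, adjusted p = 0.165), Ago2, an Argonaute that lies in the Peg13 region, was lower by -0.049 (p = 0.0183, adjusted p = 0.428), and Usp29 was lower by -0.12 (p = 0.0194, adjusted p = 0.438). In each of the other comparisons, the interaction included, 0 rows were higher and 1 lower. Of all rows, 2.39% were higher and 2.23% lower in memantine HF-HI versus memantine sham. These shares were 1.52% and 2.39% in memantine HF-HI versus saline HF-HI, and 3.67% and 3.84% in memantine sham versus saline sham. For the interaction they were 1.92% and 1.82%.

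Members also host microRNAs, whose hairpins are cut from the transcript. Of the member genes, 7 contained a mature microRNA of the RefSeq table on the same strand. A330023F24Rik (chr1:195017399-195037908) contained the miR-29b-2 and miR-29c hairpins, whose main products share their seed, Ftx on the X chromosome contained miR-374b and miR-421, and Rian contained miR-341, miR-370 and miR-1188. The sequences are shown with the seed (bases 2 to 8) in capitals to make the shared seed of the miR-29 pair visible beside other hosted microRNAs (RefSeq, GRCm38.p6).
mmu-miR-29b-3p: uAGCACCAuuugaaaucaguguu
mmu-miR-29c-3p: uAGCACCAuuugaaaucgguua
mmu-miR-374b-5p: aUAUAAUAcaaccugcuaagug
mmu-miR-370-3p: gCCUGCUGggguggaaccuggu
They lie at chr1:195037091-195037113 and chr1:195037600-195037621 on the plus strand, at chrX:103573112-103573133 on the minus strand and at chr12:109618305-109618326 on the plus strand. A330023F24Rik had a mean count of 3481 and Ftx, a regulator of X inactivation, of 1205, and neither had an unadjusted p under 0.05 in any comparison. The smallest p for Ftx was 0.0625, in memantine HF-HI versus saline HF-HI, with group medians between 1157 and 1245. Mir124a-1hg, named as the host of miR-124, a microRNA typical of neurons (chr14:64588115-64593961), had group medians between 2372 and 2496 and no p under 0.05. The counts of these hosts are not levels of mature microRNAs, which were not measured.

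Of 29 listed well-known non-coding RNAs, 14 were present in 18 rows. In saline HF-HI versus saline sham 1 was higher and 1 lower, in memantine HF-HI versus memantine sham 0 and 1, in memantine HF-HI versus saline HF-HI 0 and 1, and in memantine sham versus saline sham 1 and 1. The shares of all rows that passed in these comparisons were 9.53%, 4.61%, 3.91% and 7.51%. Malat1 had a lowest, median and highest count of 444305, 484126 and 524419 in the saline sham group and 417683, 478128 and 511778 in the saline HF-HI group. The memantine sham group gave 426794, 465447 and 520007, and the memantine HF-HI group 440793, 477126 and 502850. The groups overlapped almost fully, and the log2 difference was -0.014 ± 0.032 (SE, p = 0.676) under saline and 0.008 ± 0.032 (p = 0.801) under memantine. Norad differed by 0.00 ± 0.0155 (p = 0.98) and 0.010 ± 0.0155 (p = 0.523). Firre, an X-linked RNA that organises chromatin (chrX:50563120-50635321), had group medians between 1231 and 1255, and Sox2ot, which spans the Sox2 gene (chr3:34560381-34677993), between 516 and 614, with no p under 0.05.

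The 8 small structured RNAs had no unadjusted p under 0.05 in any comparison, and their smallest p was 0.0773. Rpph1 had a lowest, median and highest count of 37376, 44766 and 51356 in the saline sham group and 27072, 43831 and 54070 in the saline HF-HI group. The memantine sham group gave 30827, 45306 and 56199, and the memantine HF-HI group 38187, 46060 and 56863. The ranges overlapped, and the difference under saline was -0.072 ± 0.096 (SE, p = 0.459). Rmrp had group medians between 22476 and 23605, Rnu12 between 3696 and 4001, Snora74a between 2334 and 2427, Snord15b between 1174 and 1294 and Snord17 between 885 and 945. Of 27 listed proteins that act with small RNAs, 19 were in the table, and in saline HF-HI versus saline sham only Ago2 differed, against 9.53% of all rows. In memantine sham versus saline sham Snu13, a core box C/D protein, was lower by -0.040 (p = 0.00342, adjusted p = 0.462), and so was Nop56, another core box C/D protein, by -0.029 (p = 0.0478, adjusted p = 0.661). Npm1, a nucleolar protein, was higher by 0.083 (p = 0.0376, adjusted p = 0.967) in memantine HF-HI versus memantine sham, where Ago2 was lower by -0.042 (p = 0.039, adjusted p = 0.967). Drosha, which cuts microRNA hairpins, was higher by 0.039 (p = 0.0297, adjusted p = 1) in memantine HF-HI versus saline HF-HI.

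Genes whose proteins gather with Malat1 or Neat1 were read beside them. Of 24 listed paraspeckle proteins 15 were present in 28 rows, of which 1 was higher and 0 lower in saline HF-HI versus saline sham, where 9.53% of all rows passed. That row belonged to Cpsf6, a cleavage factor subunit (NM_001310609, 0.14, p = 0.00727, adjusted p = 0.34). The same row was higher by 0.13 (p = 0.012, adjusted p = 0.967) in memantine HF-HI versus memantine sham, where another Cpsf6 row, NM_001013391, was lower by -0.10 (p = 0.00525, adjusted p = 0.896). Ewsr1 (NM_001283061), an RNA-binding protein of the FET family, was lower by -0.17 (p = 0.0253, adjusted p not under 0.1) in memantine HF-HI versus saline HF-HI and by -0.16 (p = 0.0426, adjusted p = 0.646) in memantine sham versus saline sham. In the latter comparison Hnrnpul1, a nuclear RNA-binding protein, was higher by 0.031 (p = 0.0344, adjusted p = 0.636). The shares of all rows that passed in these comparisons were 4.61%, 3.91% and 7.51%, in the order named. Of 41 listed speckle and splicing proteins 36 were present in 56 rows, of which 3 were higher and 3 lower in saline HF-HI versus saline sham, close to the 9.53% of all rows that passed there. Srsf5 (NM_001079695), a splicing factor of the SR family, was higher by 0.10 (p = 0.000277, adjusted p = 0.108), Son, a speckle scaffold, by 0.054 (p = 0.00483, adjusted p = 0.305), and Celf4, a neuronal splicing regulator, was lower by -0.22 (p = 0.0127, adjusted p = 0.383). In the other pairwise comparisons at most 2 of the 56 rows differed in either direction.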

How the data were processed

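Per the authors, cortical RNA was depleted of ribosomal RNA, made into stranded libraries, read in pairs, aligned to mm10 with STAR and counted per RefSeq transcript with eXpress. The processing notes in the labels name HISAT2 and StringTie instead. The deposited values are variance-stabilised log2 values from DESeq2, made by the authors. The transformation was inverted with its floor of 10.36, which stands for a count of 0, and 100% of values under 5000 were then whole reads within 0.05. Size factors ran from 0.859 to 1.141. Differences on the deposited scale are compressed, the more so the lower the count, so log2 count differences are also given for several named members. In saline HF-HI versus saline sham, 5031426D15Rik (mean count 2182) differed by 0.108 on the deposited scale and by 0.197 as log2 counts. Other differences are on the deposited scale, except those of summed rows. Those of partner genes are therefore smaller than as log2 counts. In the same comparison the Srsf5 row NM_001079695 differed by 0.1 against 0.223 as log2 counts. The Celf4 row differed by -0.217 against -0.415.

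Symbols and positions came from RefSeq (GRCm38.p6, 61 members) or GENCODE (2 members), and lengths from GENCODE. GENCODE calls Rnf227, Gm20716 and 1500011B03Rik coding. Differences were tested with limma 3.58.1 (R 4.3.3), with a term per group, a variance trend and all 6831 rows. Rows summed by symbol were tested as log2 counts with 1 added, over 5873 summed rows. The limma fit was checked on shuffled residuals of the deposited values with changes added to some rows. The added changes were larger than any member difference called here. The check thus does not show how often differences of the reported size are found. Permutation tests were two-sided with 100000 resamples (scipy 1.17.1). The members and the lists were chosen with earlier results of these data known. Named were members at an unadjusted p under 0.05, the 10 with most counts per kb, the 5 with the widest spread and those on 2 lists of known and imprinted RNAs. For 4 lists of partner proteins, up to 3 rows per comparison were named. There were 8 alternatives, which were log2 counts with 1 or 50 added, median centring, a replicate block, a mean count of at least 1000, array weights, rows summed by symbol and striatal markers as a covariate.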

Additional observations from a re-analysis of the deposited data

Results flagged for a closer look

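In 21 of 320 checks at the ends of groups of 10, a library lay far from its nearest neighbour, by Dixon's criterion for 10 values. The 40 named members in 4 groups give 160 groups, and chance alone gives such a library in about 1 in 20 groups.

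Atp6v0c-ps2 stood at 4422 counts in saline sham replicate 7, 3883 in memantine sham replicate 5 and 4177 in memantine HF-HI replicate 6, against group medians of 7 or 8. The short Neat1 row (NR_003513) stood at 29 in saline sham replicate 3 and 48 in memantine HF-HI replicate 5, and the long row (NR_131212) in the same libraries at 3938 and 3430. Miat NR_003718 stood at 576 in saline sham replicate 9 and 4545 in memantine HF-HI replicate 3, and Miat NR_033657 at 53 in memantine sham replicate 5. The Tug1 row NR_110490 stood at 2501 in saline sham replicate 8.

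In saline HF-HI replicate 7, Rpph1 (27072) and Rmrp (16593) were both the lowest of their group. In saline HF-HI replicate 1, Snord15b (1859) and Gm15772 (3304) were the highest and Mir124a-1hg (1983) the lowest. Snhg14 was low in saline sham replicate 7 (35277) and saline HF-HI replicate 9 (36034). Sox2ot was high in saline sham replicate 3 (733), 5031426D15Rik low in memantine HF-HI replicate 1 (1820) and 1700086L19Rik high in memantine sham replicate 9 (735).

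The interaction of impact and drug had an unadjusted p under 0.05 for Dlx6os1 (0.071 on the deposited scale, limma p = 0.0234). Dlx6os1 was the only member to pass, which is 1.56% against 3.73% of all rows. With the striatal covariate its limma p was 0.0575. The Miat rows summed also passed (-0.169 as log2 counts with 1 added, limma p = 0.0115), with an adjusted p of 0.999 for both. On that count scale the Dlx6os1 interaction was 0.195.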

How the results depend on the processing

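Of 129 recomputed differences of named members, 110 kept their direction and side of the threshold, 18 kept their direction only and 1 reversed. 5031426D15Rik, 9530059O14Rik, 4933431E20Rik and both Ubb-ps rows kept an unadjusted p under 0.05 under every alternative that included them. In saline HF-HI versus saline sham 5 members passed, which became 3 among the 41 members with a mean count of at least 1000 (fewer rows tested) and 2 with the striatal covariate, where 6.18% of all rows passed. In memantine HF-HI versus memantine sham 2 passed, which became 1 with log2(count + 1), log2(count + 50), median centring, the replicate block, the count minimum or summed rows. The member lost was Oip5os1 NR_027832, which passed under 0 of 7 alternatives. Its mean count of 737.1 left it out of the count minimum. With summed rows the value was 0.024, the 1 reversed difference, but NR_015473 held 73.5% to 84.7% of that sum. In the other alternatives its limma p lay between 0.0522 and 0.061, and the cause of this shift was not tested. In memantine sham versus saline sham 5 became 3 with the count minimum and 8 with array weights. The interaction went from 1 member to 2 with the replicate block, array weights or summed rows, and to 0 with the count minimum, where 3.26% of 4232 rows passed.

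Same-numbered samples of different groups did not deviate together over all rows, with median correlations between -0.026 and 0.01. This check takes the rows as a whole, and a relation of the numbers to single rows was not tested. With the replicate block the smallest adjusted p of a member was 0.0918, for 5031426D15Rik in saline HF-HI versus saline sham, which is under 0.1. At the median member count, counting error is 2.6%, so a difference of a few percent is near the limit of a single library.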
